A study of Homo sapiens with 40 samples.

Results

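MicroRNA host genes are long non-coding RNA (lncRNA) genes whose transcripts carry microRNA hairpins in an exon or an intron. The genes described here were those whose GENCODE symbol begins with MIR and a digit and ends in HG, which gave 81 of the 60708 genes in the count tables. Of these, 80 were annotated as lncRNA, 62 held at least 1 RefSeq microRNA hairpin on their own strand and 3 (MIR3171HG, MIR4290HG and MIR670HG) had no count in any library. RNA was measured by total RNA sequencing in 24 libraries, 3 in each of 8 groups. MI Ctrl were untreated spheres of MCF-10A, an immortalized breast epithelial line, and MII Ctrl were untreated spheres of MCF-10A-HRAS, the same line transformed with HRAS. MI TGFb and MII TGFb were the same spheres given TGF-beta1 at 2.5 ng/ml for 16 h. MDA-MB-231 WT were untreated cells of a triple-negative breast cancer line grown flat, and SLUG KO were MDA-MB-231 cells expanded from single cells after Cas9 editing of SNAI2, the gene for SLUG. Csi and siSMAD2/3/4 were unedited MDA-MB-231 cells that received a scrambled siRNA or siRNAs against SMAD2, SMAD3 and SMAD4, and they formed a sequencing batch of their own. Libraries were compared within a batch alone.

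A microRNA is cut from a longer primary transcript, first by DROSHA with DGCR8 in the nucleus and then by DICER1 in the cytoplasm, and the mature strand guides an Argonaute protein to messenger RNAs that pair with its seed, bases 2 to 8. The spliced host RNA counted here and the mature microRNA arise from the same primary transcript, but their levels also depend on processing and decay. In breast epithelium, miR-200c, miR-141 and miR-205 are known for repressing ZEB1 and ZEB2, repressors of the epithelial gene CDH1, and TGFβ is a well-known inducer of the epithelial to mesenchymal transition. Mature microRNAs were not measured in these libraries, so every value below is a level or a change of host RNA.

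Total counts ran from 14124688 to 38406952 per library, and the members together took from 0.0302% to 0.0726% of the counts of a library. Replicates of a group correlated at r = 0.994 or above across genes, except MDA-MB-231 WT, where replicate 2 gave r = 0.942 and 0.937 with the others, and MDA-MB-231 WT replicates 1 and 3 gave 0.993. The mean level of HRAS was 40.3 CPM (counts scaled to library size) in MI Ctrl and 219 in MII Ctrl, and siRNA lowered SMAD2 (log2 fold-change -1.92), SMAD4 (-1.72) and SMAD3 (-0.69). SNAI2 RNA was not lower after the edit: its mean was 28.9 CPM in MDA-MB-231 WT and 62.5 in the libraries labelled SLUG KO. RNA counts do not show whether the protein was lost. The paper states that knock-out clones were checked by ddPCR and immunoblotting. Of 7 basal epithelial markers, KRT5, KRT17 and TP63 were called lower in MII Ctrl than in MI Ctrl, KRT14, CDH1 and EPCAM were called higher and ITGB4 was not called. TP63 was at 50.6 CPM in MI Ctrl and 0.616 in MII Ctrl. Among 9 genes of cell types that the cultures should lack, PECAM1 reached 103.8 CPM in MII Ctrl and CDH5 22.0 CPM in MI Ctrl.

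The mature sequences of the hosts that carried most of the RNA or of the changes are shown first, from RefSeq on GRCh38.p14, with the seed in capitals. The first set comes from the epithelial hosts MIR200CHG (chr12:6963246-6964447, plus strand, both hairpins in its intron) and MIR205HG (chr1:209428817-209432838, plus strand, hairpin across an exon boundary), and from MIR31HG (chr9:21453802-21559900, minus strand, hairpin in an intron). The seeds of miR-200c and miR-141 differ, although both belong to the miR-200 family.
miR-200c-3p: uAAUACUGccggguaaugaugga
miR-141-3p: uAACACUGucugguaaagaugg
miR-205-5p: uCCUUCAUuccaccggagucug
miR-31-5p: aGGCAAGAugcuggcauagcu

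The second set comes from the hosts that fell more than 2-fold with TGFβ in both sphere lines. MIR222HG (chrX:45745211-45770274, minus strand) holds miR-221 and miR-222 in its intron, and they share a seed. MIR17HG (chr13:91347820-91354579, plus strand) holds 6 hairpins in an exon, and of their products miR-17 and miR-20a share one seed and miR-19a and miR-19b another. MIR29B2CHG (chr1:207801518-207879115, minus strand) holds miR-29b and miR-29c, with a common seed. MIR23AHG (chr19:13823880-13842928, minus strand) holds miR-23a, miR-27a and miR-24, which share none.
miR-221-3p: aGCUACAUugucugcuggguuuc
miR-222-3p: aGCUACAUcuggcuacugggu
miR-17-5p: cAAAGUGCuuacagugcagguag
miR-20a-5p: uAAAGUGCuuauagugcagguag
miR-19a-3p: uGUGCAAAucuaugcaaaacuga
miR-19b-3p: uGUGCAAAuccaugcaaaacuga
miR-92a-3p: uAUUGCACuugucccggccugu
miR-29b-3p: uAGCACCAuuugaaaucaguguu
miR-29c-3p: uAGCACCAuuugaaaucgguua
miR-23a-3p: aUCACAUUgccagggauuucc
miR-27a-3p: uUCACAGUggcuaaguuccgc
miR-24-3p: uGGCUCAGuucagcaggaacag

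The third set shows hosts on different chromosomes that supply the same seed. MIR100HG on chromosome 11 and MIR99AHG on chromosome 21 each hold a let-7 and a miR-99 family hairpin in an intron. MIR181A1HG on chromosome 1 and MIR181A2HG on chromosome 9 both give miR-181a-5p.
miR-100-5p: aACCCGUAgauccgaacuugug
miR-99a-5p: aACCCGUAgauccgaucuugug
let-7a-5p: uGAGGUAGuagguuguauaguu
let-7c-5p: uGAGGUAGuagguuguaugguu
miR-125b-5p: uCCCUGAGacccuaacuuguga
miR-181a-5p: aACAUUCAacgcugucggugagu
miR-181b-5p: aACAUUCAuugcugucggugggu

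The last set belongs to further hosts that were called in at least 1 comparison: MIR210HG, MIR137HG, MIR34AHG, MIR223HG, MIR3142HG (which holds miR-146a) and MIR924HG.
miR-210-3p: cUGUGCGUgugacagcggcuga
miR-137-3p: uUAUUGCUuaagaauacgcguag
miR-34a-5p: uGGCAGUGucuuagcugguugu
miR-223-3p: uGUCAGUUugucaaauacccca
miR-146a-5p: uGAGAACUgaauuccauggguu
miR-924: aGAGUCUUgugaugucuugc

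To compare levels between hosts, CPM were divided by exonic length in kilobases. In MI Ctrl the highest levels were those of MIR205HG at 55.6 ± 0.664 CPM per kb (SD, n = 3), MIR200CHG at 46.3 ± 1.21 and MIR22HG at 29.8 ± 0.893, and their libraries did not overlap. In MII Ctrl the order was MIR200CHG at 36.1 ± 3.83 CPM per kb, MIR22HG at 23.1 ± 0.385 and MIR205HG at 15.4 ± 0.213, with MIR222HG next at 14.3 ± 0.729. In MDA-MB-231 WT the leading hosts per kb were MIR222HG at 25.0 ± 9.87 CPM per kb and MIR22HG at 11.5 ± 2.18. The length takes in all annotated exons of a gene, so the order depends on it. By CPM alone, MIR4435-2HG at 132.5 (34231 bases) and MIR100HG at 114.6 (28649 bases) stood above MIR222HG at 69.7 and MIR22HG at 34.5. In the separate siRNA batch, the Csi libraries had MIR22HG at 9.97 ± 0.521 CPM per kb and MIR222HG at 8.37 ± 0.383. MIR22HG, the host of the miR-22 precursor, was thus among the highest hosts per length in each of these 4 groups. In bulk RNA, fewer cells that express a gene and less RNA per cell cannot be told apart.

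**Figure D1:**
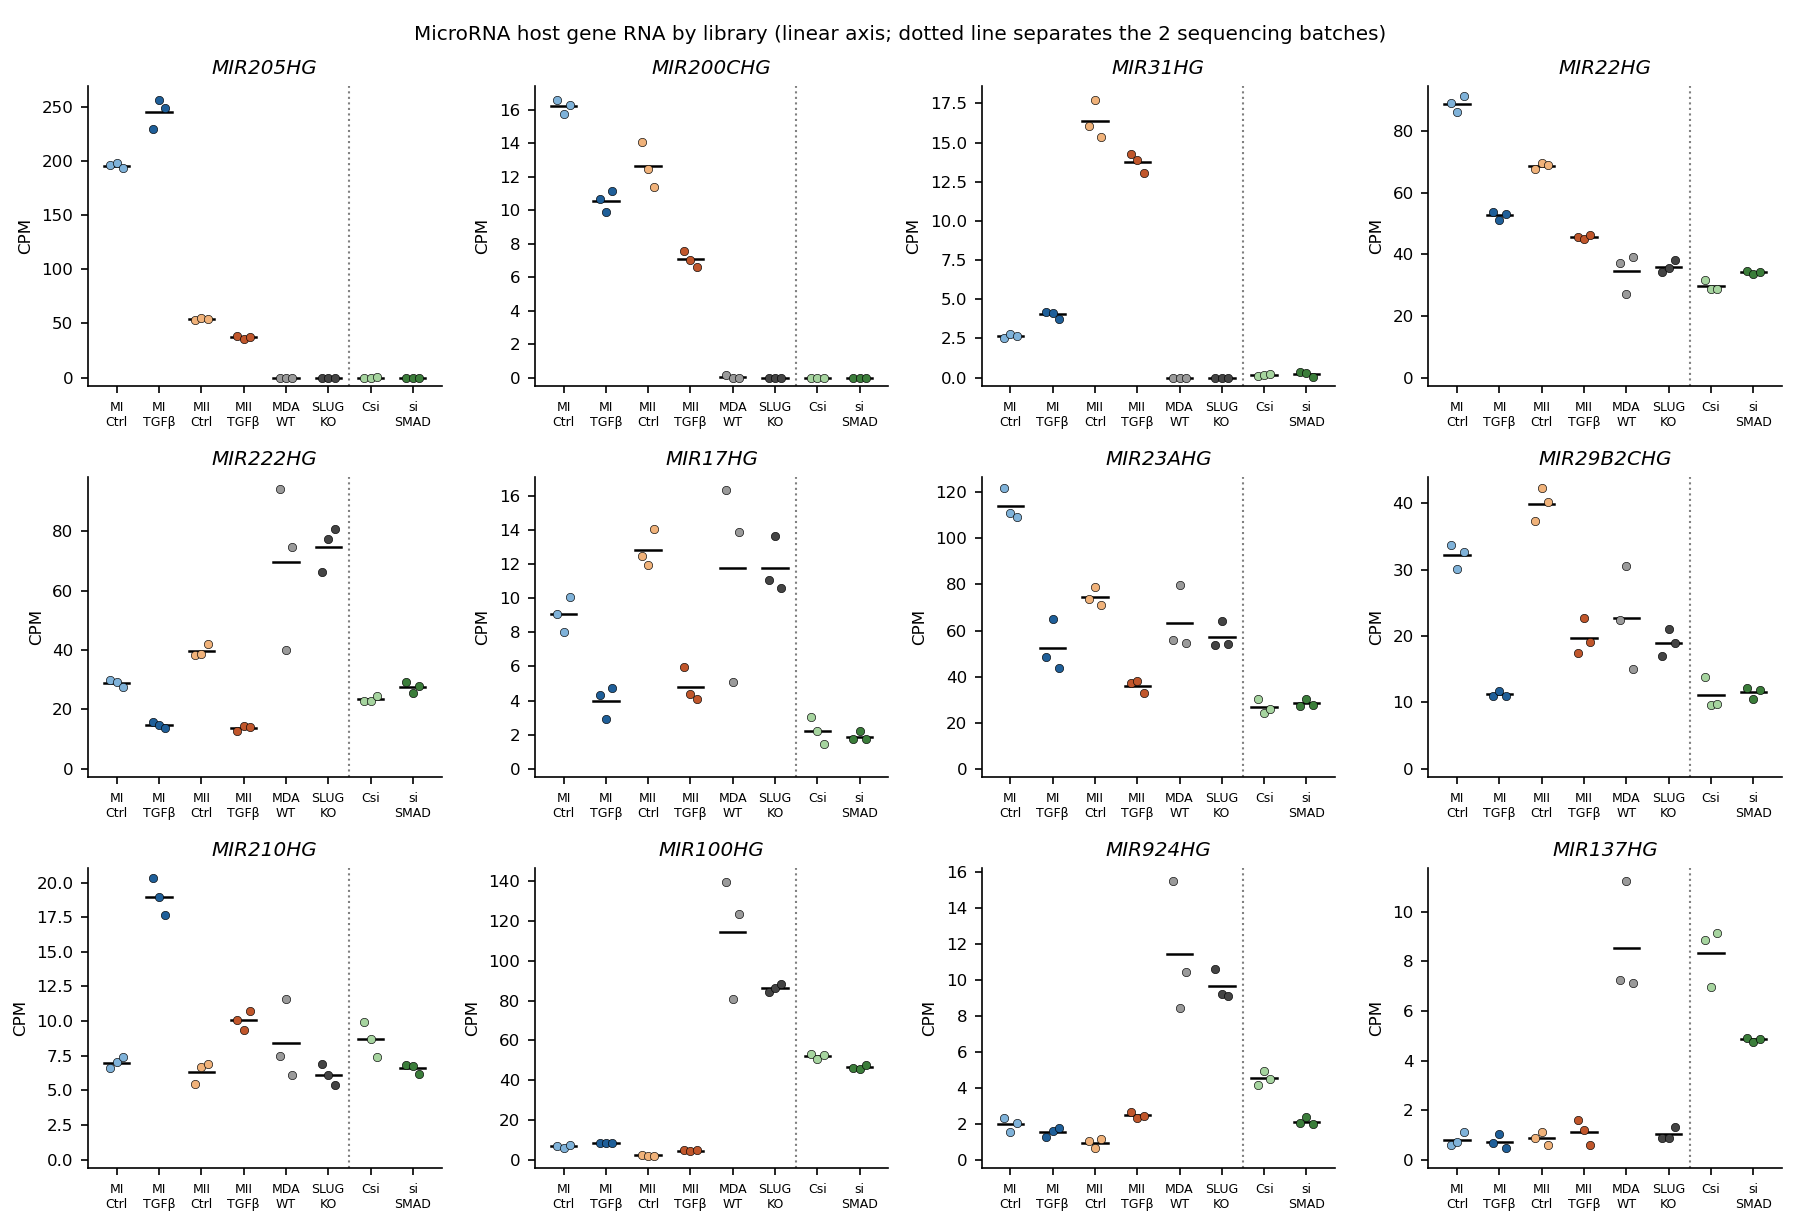
Level of 12 microRNA host genes in each of the 24 libraries, in CPM on linear axes, with points for libraries, bars for group means (n = 3) and a dotted line between the 2 sequencing batches. MIR205HG, MIR200CHG and MIR31HG are at or near 0 in every MDA-MB-231 group, and MIR222HG, MIR17HG, MIR23AHG and MIR29B2CHG are lower in each TGFβ library than in each control library of the same sphere line.

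The first question was how the hosts responded to TGFβ in each sphere line. A gene was called at a Benjamini-Hochberg adjusted p under 0.05 over all genes tested, and called a DEG when the log2 fold-change was also above 1 or below -1. In MI-spheres 31 members passed the filter on low counts, of which 7 were called higher and 11 lower (58.1%, against 56.0% of all 16863 genes tested, 28.7% higher and 27.4% lower), and 9 were DEGs (29.0%, against 13.6%). These were 3 higher, against 3.64% of all genes, and 6 lower, against 9.92%. In MII-spheres 31 members were tested, of which 3 were called higher and 17 lower (64.5%, against 57.6% of all 16396 genes, 29.9% higher and 27.6% lower), and 9 were DEGs (29.0%, against 10.6%). These were 2 higher, against 3.12%, and 7 lower, against 7.50%. The share called lower was 54.8% of members in MII against 27.6% of all genes. However, lncRNA genes as a class were called lower in 38.8% (MI) and 47.0% (MII) of those tested, near the members' own 35.5% and 54.8%. The share called higher was 22.6% of members in MI and 9.68% in MII, against 6.07% and 3.06% of lncRNAs. DEGs with lower RNA were 25.4% of the lncRNAs tested in MI and 23.5% in MII. DEGs with higher RNA were 2.79% and 1.11% of them. The median log2 fold-change of the tested members was -0.23 in MI and -0.55 in MII, against -0.02 for all genes in both lines and -0.55 and -0.61 for lncRNAs.

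The 2 TGFβ comparisons share no library. Of 27 members tested in both, 10 were called lower in both (37.0%), against 17.1% of 15462 genes and 28.9% of 2108 lncRNA genes tested in both. These were MIR17HG, MIR22HG, MIR23AHG, MIR29B2CHG, MIR34AHG, MIR133A1HG, MIR181A2HG, MIR200CHG, MIR222HG and MIR3936HG. MIR210HG was called higher in both (3.70% of members, against 20.5% of all genes and 1.66% of lncRNAs). Of the others, 4 members were called in MI alone, 6 in MII alone and 4 in neither, and MIR205HG and MIR31HG were called in opposite directions. The shares of all genes with these outcomes were not computed. In the separate comparisons 56.0% (MI) and 57.6% (MII) of all genes tested were called, so these counts are not read as a trait of the hosts.

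MIR17HG, MIR222HG, MIR23AHG and MIR29B2CHG were DEGs with lower RNA in both lines. MIR222HG, host of the miR-221 and miR-222 pair that targets the cell cycle inhibitor CDKN1B, stood at 29.8, 29.1 and 27.5 CPM in MI Ctrl and 15.8, 14.5 and 13.6 in MI TGFb (log2 fold-change -1.06 ± 0.08, adjusted p = 7.6e-10). In MII-spheres it went from 38.4, 38.8 and 42.1 CPM to 12.8, 14.4 and 13.99 (log2 fold-change -1.56 ± 0.08, adjusted p = 7e-24). All TGFβ libraries were below all controls of their line. MIR17HG, host of the proliferation-linked miR-17-92 cluster, was at 9.11, 8.01 and 10.1 CPM in MI Ctrl and 4.34, 2.91 and 4.73 in MI TGFb (log2 fold-change -1.26 ± 0.15, adjusted p = 6.3e-07). In MII-spheres its level went from 12.5, 11.9 and 14.1 to 5.98, 4.39 and 4.08 CPM (log2 fold-change -1.43 ± 0.13, adjusted p = 2.5e-13). The groups did not overlap in either line.

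MIR29B2CHG, whose miR-29 products are known for targeting collagen and other matrix messages, had 33.7, 30.01 and 32.7 CPM in MI Ctrl and 11.0, 11.7 and 10.9 in MI TGFb (log2 fold-change -1.60 ± 0.08, adjusted p = 1e-12). In MII-spheres it had 37.2, 42.3 and 40.1 CPM without and 17.5, 22.7 and 19.01 with TGFβ (log2 fold-change -1.04 ± 0.08, adjusted p = 4.3e-17). It was the host with the lowest log2 fold-change among the members tested in MI. MIR23AHG, host of the miR-23a, miR-27a and miR-24 cluster, was at 121.8, 111.2 and 109.3 CPM in MI Ctrl and 48.4, 65.0 and 43.7 in MI TGFb (log2 fold-change -1.20 ± 0.10, adjusted p = 2.1e-09). In MII-spheres it fell from 73.6, 79.1 and 70.9 to 37.2, 37.9 and 32.9 CPM (log2 fold-change -1.08 ± 0.06, adjusted p = 1.7e-21). This gene is annotated as 1 exon of 19049 bases and shares 13.2% of them with other genes, ZSWIM4 on the other strand among them, and fragments in shared bases entered neither count. ZSWIM4 was itself lower with TGFβ (log2 fold-change -1.001 in MI and -0.51 in MII), and its part in the result was not tested.

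MIR200CHG, host of the epithelial miR-200c and miR-141, was at 16.6, 15.7 and 16.3 CPM in MI Ctrl and 10.6, 9.89 and 11.2 in MI TGFb (log2 fold-change -0.69 ± 0.09, adjusted p = 1.8e-06). In MII-spheres it was at 14.1, 12.4 and 11.4 CPM without and 7.58, 7.01 and 6.63 with TGFβ (log2 fold-change -0.85 ± 0.12, adjusted p = 2.2e-08). The host was lower in each TGFβ library than in each control of its line, but it stayed well above 0. MIR22HG went from 89.1, 86.2 and 91.5 to 53.7, 51.2 and 53.1 CPM in MI-spheres (log2 fold-change -0.83 ± 0.06, adjusted p = 7.1e-11), and from 67.6, 69.8 and 69.2 to 45.6, 44.9 and 46.5 CPM in MII-spheres (log2 fold-change -0.62 ± 0.06, adjusted p = 6.6e-14). MIR34AHG, host of the p53-induced miR-34a, went from 14.8, 15.3 and 17.5 to 10.7, 13.6 and 14.1 CPM in MI-spheres (log2 fold-change -0.37 ± 0.11, adjusted p = 0.0054) and from 36.1, 37.2 and 36.7 to 21.0, 23.1 and 22.0 CPM in MII-spheres (log2 fold-change -0.76 ± 0.07, adjusted p = 1.2e-13). Among the other members lower in both lines, MIR133A1HG was a DEG in MI (from 3.62, 4.01 and 3.29 to 2.12, 1.72 and 1.63 CPM, log2 fold-change -1.08 ± 0.20) and fell by less in MII (-0.55). MIR181A2HG was a DEG in MII (from 4.34, 4.25 and 3.58 to 1.66, 1.38 and 2.61 CPM, log2 fold-change -1.13 ± 0.22), with -0.72 in MI, and MIR3936HG changed by -0.72 and -0.90.

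Members that were DEGs with lower RNA in a single line were less abundant. MIR3677HG was at 2.21, 2.34 and 2.00 CPM in MI Ctrl and 0.543, 1.19 and 1.05 in MI TGFb (log2 fold-change -1.28 ± 0.28, adjusted p = 0.00068), and its log2 fold-change of -0.73 in MII missed the threshold (adjusted p = 0.051). MIR9-1HG, host of one of the miR-9 precursors, went from 1.38, 1.66 and 1.49 to 0.332, 0.524 and 0.335 CPM in MII-spheres (log2 fold-change -1.95 ± 0.38, adjusted p = 2.3e-05). MIR378D2HG went from 0.854, 0.896 and 0.715 to 0.399, 0 and 0.268 CPM in MII-spheres (log2 fold-change -1.90 ± 0.53, adjusted p = 0.0018), where 1 treated library had no count. The log2 fold-change was -2.60 without MII TGFb replicate 1 and -1.31 without replicate 2. MIR181A1HG, MIR4453HG and MIR4458HG were called lower in MII with smaller changes (-0.89, -0.53 and -0.46).

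Fewer hosts rose. MIR210HG, host of the hypoxia-linked miR-210, was at 6.59, 7.01 and 7.39 CPM in MI Ctrl and 20.3, 18.9 and 17.6 in MI TGFb (log2 fold-change 1.36 ± 0.10, adjusted p = 4e-10). In MII-spheres it was at 5.45, 6.70 and 6.88 CPM without and 10.1, 9.36 and 10.7 with TGFβ (log2 fold-change 0.63 ± 0.13, adjusted p = 3.7e-05). Every treated library exceeded every control of its line. The 2 hosts that share the miR-99 and let-7 seeds both reached the DEG threshold in 1 line: MIR99AHG in MI, from 0.305, 0.334 and 0.462 to 0.760, 0.839 and 1.25 CPM (log2 fold-change 1.32 ± 0.40, adjusted p = 0.0083), and MIR100HG in MII, from 2.30, 1.99 and 1.98 to 4.59, 4.13 and 4.82 CPM (log2 fold-change 1.10 ± 0.20, adjusted p = 5.6e-06). In the other line, MIR100HG had 6.75, 5.96 and 7.24 CPM in MI Ctrl and 8.36, 8.35 and 8.40 in MI TGFb (adjusted p = 0.076), and MIR99AHG in MII had a log2 fold-change of 0.48 ± 0.25 (adjusted p = 0.099). MIR1915HG rose in MI-spheres from 0.457, 0.477 and 0.565 to 1.25, 1.55 and 1.63 CPM (log2 fold-change 1.49 ± 0.34, adjusted p = 0.00077). MIR924HG rose in MII-spheres from 1.05, 0.631 and 1.16 to 2.66, 2.29 and 2.41 CPM (log2 fold-change 1.42 ± 0.29, adjusted p = 4.3e-05), and was at 2.29, 1.53 and 2.05 CPM in MI Ctrl and 1.25, 1.59 and 1.76 in MI TGFb (adjusted p = 0.16). MIR193BHG and MIR4435-2HG were called higher in MI with smaller changes (0.75 and 0.27). MIR4435-2HG has a near-identical copy elsewhere on chromosome 2, so reads assigned to either are uncertain.

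MIR205HG and MIR31HG moved in opposite directions in the 2 lines. MIR205HG was at 196, 198 and 193 CPM in MI Ctrl and 230.1, 257 and 249 in MI TGFb (log2 fold-change 0.25 ± 0.05, adjusted p = 0.00053), and at 53.7, 55.1 and 53.9 CPM in MII Ctrl and 38.5, 35.7 and 37.6 in MII TGFb (log2 fold-change -0.57 ± 0.06, adjusted p = 1.1e-11). MIR31HG was at 2.55, 2.77 and 2.67 CPM in MI Ctrl and 4.18, 4.15 and 3.76 in MI TGFb (log2 fold-change 0.52 ± 0.17, adjusted p = 0.014), and at 16.03, 17.7 and 15.4 CPM in MII Ctrl and 14.3, 13.9 and 13.1 in MII TGFb (log2 fold-change -0.29 ± 0.09, adjusted p = 0.0082). For both hosts treated and control libraries did not overlap in either line. The difference between the 2 responses itself was called for both, at -0.80 ± 0.08 (adjusted p = 5e-11) for MIR205HG and -0.79 ± 0.18 (adjusted p = 0.00086) for MIR31HG on the log2 scale, MII minus MI. With DESeq2, the calls of MIR31HG in MI and in MII were each lost (adjusted p = 0.076 and 0.121), as were those of MIR34AHG, MIR99AHG and MIR181A2HG in MI (0.052, 0.067 and 0.204) and of MIR4453HG and MIR133A1HG in MII (0.105 and 0.094).

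The interaction fit, over all 12 sphere libraries, tested 35 members and called 12, of which 4 had a more positive and 8 a more negative response in MII (34.3%, against 22.4% of 18591 genes, 12.6% more positive and 9.75% more negative). The 2 past the DEG threshold (5.71%, against 5.84% of all genes, 3.75% more positive and 2.09% more negative) were MIR924HG (1.85 ± 0.39, adjusted p = 0.00035) and MIR4280HG (-1.73 ± 0.63, adjusted p = 0.045). MIR4280HG was at 0.114, 0.239 and 0 CPM in MI Ctrl and 0.434, 0.486 and 0.209 in MI TGFb, so its value rests on few counts in MI, and its call was lost in 9 of 16 alternatives. Without MI Ctrl replicate 2 it was still called, at -2.57. MIR100HG responded more in MII (difference 0.85 ± 0.21), MIR210HG responded less in MII (-0.73 ± 0.16), MIR222HG fell further in MII (-0.49 ± 0.12) and MIR29B2CHG fell less in MII (0.57 ± 0.12).

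**Figure D2:**
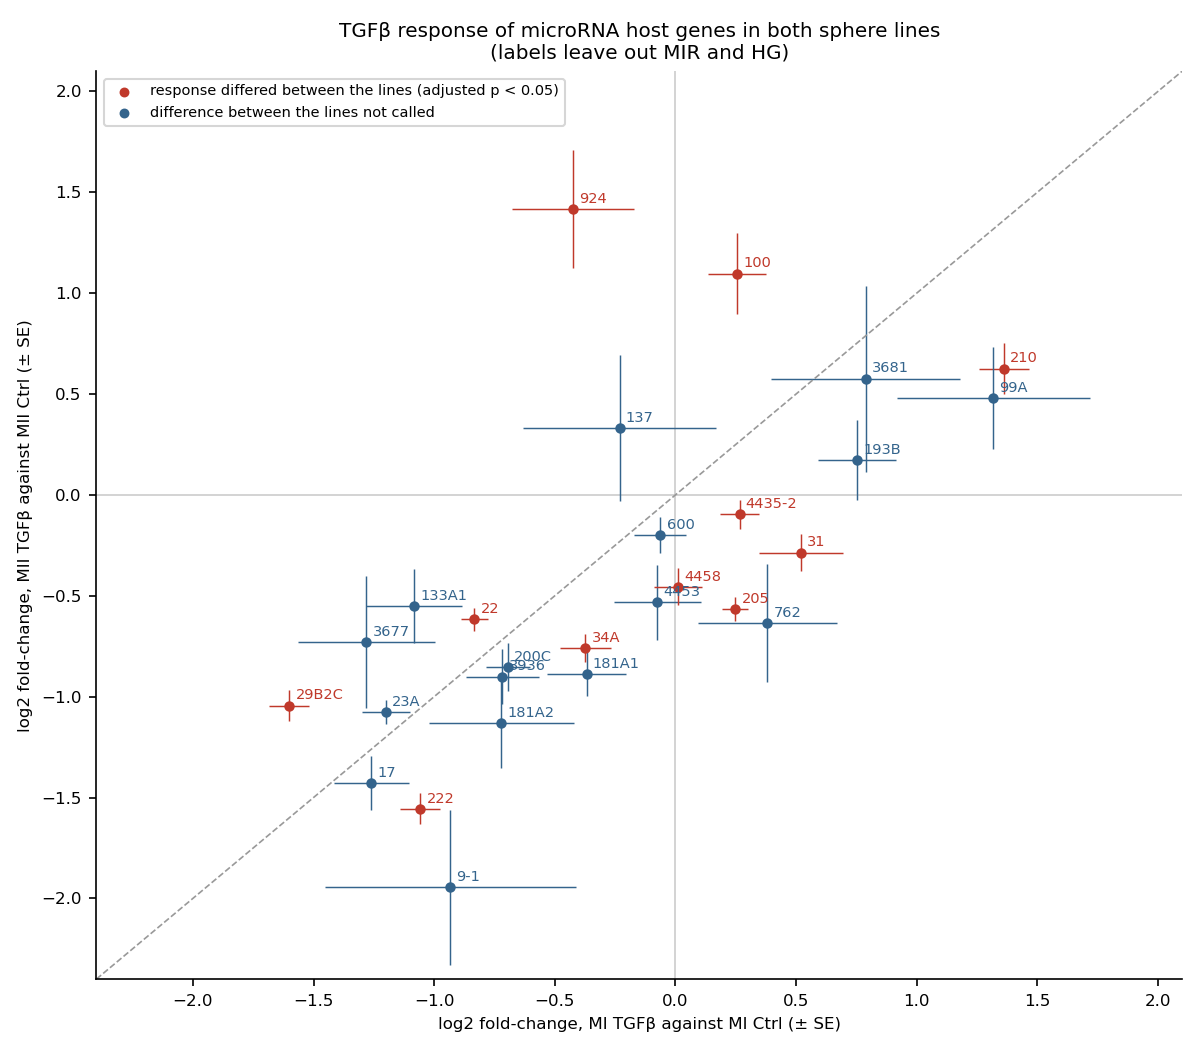
Log2 fold-change with TGFβ in MI-spheres (horizontal axis) and MII-spheres (vertical axis) for the 27 members tested in both, with bars for ± SE and a dashed line where both are equal. Most points lie in the lower left, MIR205HG and MIR31HG lie right of 0 and below it, and MIR924HG and MIR100HG lie farthest above the dashed line.

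The second question was how the hosts differed between untreated HRAS-transformed and parental spheres. Of 33 members tested, 16 were called higher in MII Ctrl and 7 lower (69.7%, against 64.2% of 17862 genes, 31.7% higher and 32.5% lower), and 13 were DEGs (39.4%, against 20.1%), 9 higher and 4 lower, against 12.5% and 7.62% of all genes. Their median log2 fold-change was 0.33, against 0.02 for all genes and 0.33 for lncRNAs. The MI Ctrl and MII Ctrl libraries also serve as the controls of the TGFβ comparisons. MIR31HG was higher in MII Ctrl (values above, log2 fold-change 2.64 ± 0.12, adjusted p = 3.7e-26), and MIR205HG was lower (-1.85 ± 0.04, adjusted p = 2.1e-40). Of the 7 basal markers, 3 were called lower and 3 higher between the same libraries, and their part in the result was not tested. MIR200CHG and MIR22HG were both lower in MII Ctrl by smaller amounts (-0.36 and -0.36).

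The 2 hosts of miR-181a were both higher in MII Ctrl. MIR181A1HG was at 5.45, 7.68 and 7.60 CPM in MI Ctrl and 16.7, 15.7 and 18.99 in MII Ctrl (log2 fold-change 1.33 ± 0.11, adjusted p = 5.3e-16), and MIR181A2HG had a log2 fold-change of 1.34 ± 0.21 (adjusted p = 1.3e-07). MIR34AHG was higher by 1.22 ± 0.07 and MIR600HG by 1.07 ± 0.09, the latter from 8.65, 8.73 and 8.42 to 18.8, 18.6 and 16.6 CPM. The 2 hosts with the miR-99 and let-7 seeds went in opposite directions: MIR99AHG was higher in MII Ctrl (2.25 ± 0.36) and MIR100HG lower (-1.67 ± 0.17). MIR924HG was lower (-1.12 ± 0.29) and MIR9-1HG higher (1.02 ± 0.31).

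Some hosts were close to silent in one of the sphere lines. MIR223HG, whose microRNA is best known from myeloid cells, was at 0.0381, 0.0954 and 0 CPM in MI Ctrl and 1.90, 1.92 and 2.37 in MII Ctrl, or 3 and 130 counts in all, a ratio of 48.7 with a 95% counting interval of 16.3 to 239 (adjusted p = 2.8e-13). MIR4280HG was at 0.114, 0.239 and 0 and 5.32, 5.81 and 4.68 CPM (log2 fold-change 5.41 ± 0.34, adjusted p = 2.6e-20), with a log2 fold-change of 6.22 without MI Ctrl replicate 2. MIR646HG went the other way, with 1.14, 1.86 and 1.28 CPM in MI Ctrl and 0.394, 0.0996 and 0 in MII Ctrl (log2 fold-change -3.25 ± 0.49, adjusted p = 8.4e-08), and its log2 fold-change was -4.41 without MII Ctrl replicate 1. The remaining called members had smaller changes: MIR17HG (0.50), MIR222HG (0.47), MIR29B2CHG (0.32), MIR3936HG (0.49), MIR4435-2HG (0.25), MIR4453HG (0.47) and MIR4458HG (0.66) were higher in MII Ctrl, and MIR23AHG (-0.60) was lower.

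The third comparison set MDA-MB-231 WT against MI Ctrl. Line, transformation and flat or sphere culture all differ between these groups and cannot be told apart. Of 36 members tested, 13 were called higher in MDA-MB-231 WT and 11 lower (66.7%, against 54.0% of 18732 genes, 28.1% higher and 25.9% lower), and 20 were DEGs (55.6%, against 44.5%), 12 higher and 8 lower, against 23.4% and 21.1% of all genes. The median log2 fold-change was 0.02 for the members, 0.06 for all genes and 0.07 for lncRNAs. Of the lncRNAs tested, 24.2% were DEGs with higher and 24.2% with lower RNA in MDA-MB-231 WT. Without MDA-MB-231 WT replicate 2, 29 members were called, and 74.9% of all genes.

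MIR205HG, MIR31HG and MIR200CHG were at or near 0 in MDA-MB-231 WT. MIR205HG had 13073 counts over the MI Ctrl libraries and 0 over the MDA-MB-231 WT libraries, and was at least 4603-fold lower against 3 counts over the group. MIR31HG had 177 counts and 0, and was at least 62.3-fold lower on the same basis. MIR200CHG had 16.6, 15.7 and 16.3 CPM in MI Ctrl and 0.154, 0 and 0 in MDA-MB-231 WT. In the same libraries ZEB1 was at 1.21 CPM in MI Ctrl and 96.8 in MDA-MB-231 WT, ZEB2 at 2.09 and 12.9, and CDH1 at 521 and 1.26. ZEB1 and ZEB2 are the best known targets of miR-200c and miR-205, and CDH1 is the gene that the ZEB factors repress. Whether the levels of the hosts bear on those of ZEB1, ZEB2 and CDH1 was not tested. MIR205HG was also at 0 in the SLUG KO and siSMAD2/3/4 libraries and in all but 1 Csi library, and MIR31HG was between 0.0626 and 0.384 CPM in the siRNA batch.

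Other hosts were higher in MDA-MB-231 WT. MIR100HG was at 6.75, 5.96 and 7.24 CPM in MI Ctrl and 139.8, 80.6 and 123.5 in MDA-MB-231 WT (log2 fold-change 4.05 ± 0.27, adjusted p = 2.5e-05), while MIR99AHG, with the same seeds, had 0.305, 0.334 and 0.462 and 0.423, 0.430 and 0.204 CPM (adjusted p = 0.85). MIR503HG, which holds miR-503 across an exon boundary, was at 0.381, 0.239 and 0.462 and 14.6, 18.3 and 14.99 CPM (log2 fold-change 5.39 ± 0.30, adjusted p = 1.2e-05). MIR4435-2HG was at 21.9, 22.0 and 21.7 and 147, 130.1 and 120.5 CPM (log2 fold-change 2.54 ± 0.16, adjusted p = 2.2e-05). MIR222HG was at 94.3, 39.99 and 74.8 CPM in MDA-MB-231 WT (log2 fold-change 1.22 ± 0.31, adjusted p = 0.013), with its lowest value in replicate 2, and its call was lost without MI Ctrl replicate 2 or 3 (adjusted p = 0.055 and 0.061). MIR1915HG (8.12, 13.8 and 8.64 CPM, log2 fold-change 4.28 ± 0.32), MIR137HG (7.23, 11.2 and 7.13, 3.35 ± 0.35), MIR924HG (15.5, 8.44 and 10.4, 2.49 ± 0.31), MIR646HG (6.89, 7.32 and 7.33, 2.27 ± 0.26) and MIR4280HG (1.81, 1.51 and 2.69, 3.95 ± 0.67, or 4.77 without MI Ctrl replicate 2) were DEGs as well. MIR3681HG was at 0.610, 0.429 and 0.770 CPM in MI Ctrl and 3.96, 2.84 and 4.81 in MDA-MB-231 WT (log2 fold-change 2.62 ± 0.35, adjusted p = 0.00062).

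MIR3142HG, host of the NF-κB-induced miR-146a, had 2 counts over MI Ctrl and 202 over MDA-MB-231 WT, a ratio of 95.6 with a 95% counting interval of 26.1 to 795 (adjusted p = 0.00044). MIR130AHG had 1 and 70 counts, a ratio of 66.3 with an interval of 11.5 to 2655 (adjusted p = 0.00051). Lower in MDA-MB-231 WT than in MI Ctrl were MIR34AHG at 2.92, 4.26 and 2.00 CPM (log2 fold-change -2.43 ± 0.29, adjusted p = 0.00040), MIR22HG at 37.2, 27.03 and 39.2 (log2 fold-change -1.42 ± 0.20, adjusted p = 0.00076) and MIR193BHG at 1.08, 1.38 and 1.06, against 2.97, 2.72 and 2.67 in MI Ctrl (log2 fold-change -1.31 ± 0.25, adjusted p = 0.0034). MIR9-1HG was at 0.192, 0.344 and 0.122 CPM (log2 fold-change -1.82 ± 0.45, adjusted p = 0.012), and MIR3150BHG was at 1.03, 1.38 and 0.616 CPM in MI Ctrl and 0.192, 0.0861 and 0.122 in MDA-MB-231 WT (log2 fold-change -2.92 ± 0.49, adjusted p = 0.0018). MIR181A1HG (0.92) was called higher, and MIR23AHG (-0.91), MIR3677HG (-0.88) and MIR3936HG (-0.80) lower, with changes under the DEG threshold.

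**Figure D3:**
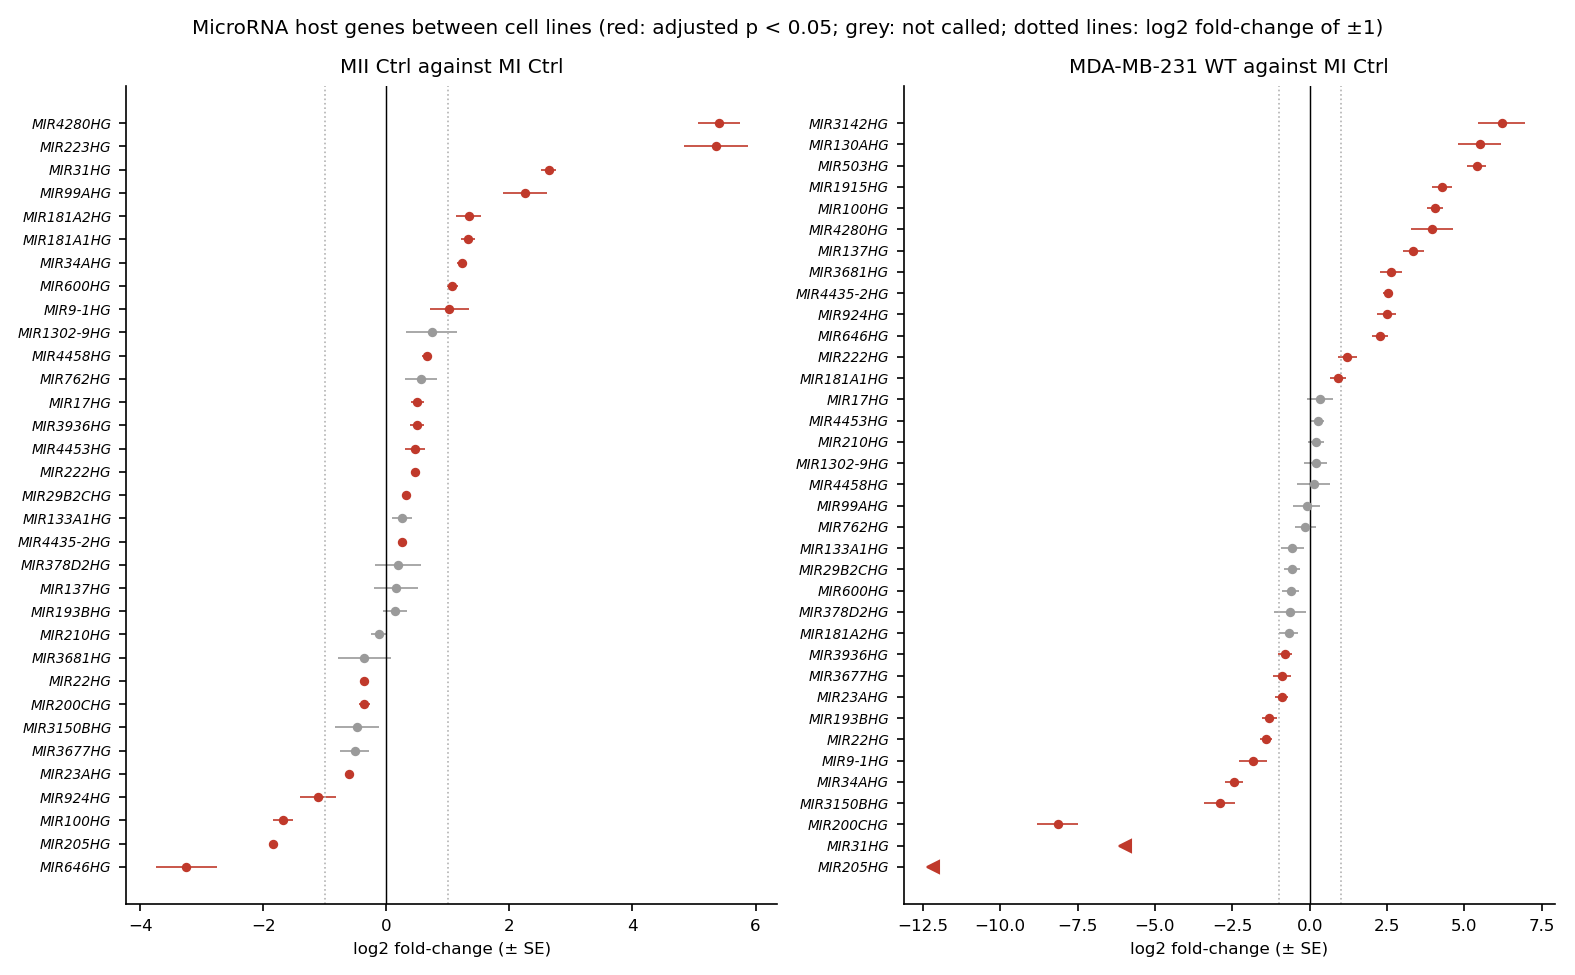
Log2 fold-change ± SE of every member tested in MII Ctrl against MI Ctrl (left) and MDA-MB-231 WT against MI Ctrl (right), with red for called members and dotted lines at 1 and -1. Triangles give the bound for MIR205HG and MIR31HG, which had 0 counts in MDA-MB-231 WT. MIR31HG lies right of 1 in the left panel and left of -1 in the right panel.

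The fourth comparison asked which hosts differed between the libraries labelled SLUG KO and MDA-MB-231 WT. Of 31 members tested, 1 was called, and lower (3.23%, against 3.33% of 17428 genes, 1.45% higher and 1.89% lower), and it was a DEG, as were 3.05% of all genes (1.25% higher and 1.80% lower). An unadjusted p under 0.05 was found for 9 of the 31 members. The share of all genes under that threshold was not computed, so nothing is read from this count. MIR137HG, host of the neuronal miR-137, was at 7.23, 11.2 and 7.13 CPM in MDA-MB-231 WT and 0.882, 0.875 and 1.33 in the libraries labelled SLUG KO (log2 fold-change -3.05 ± 0.31, adjusted p = 0.0041). All 3 labelled SLUG KO libraries were below all 3 of MDA-MB-231 WT. MIR137HG shares 5.1% of its exonic bases with DPYD on the same strand, and fragments there were not counted for either. Since these cells were expanded from single cells, a difference between clones and an effect of the edit cannot be told apart.

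Without MDA-MB-231 WT replicate 2, 31.2% of 17909 genes and 9 members were called. The members then called higher in the libraries labelled SLUG KO were MIR378D2HG (1.47 ± 0.38, adjusted p = 0.0084), MIR3142HG (1.03 ± 0.17, adjusted p = 0.00026), MIR1915HG (0.92 ± 0.13, adjusted p = 5.4e-05), MIR646HG (0.68 ± 0.15, adjusted p = 0.0022) and MIR3681HG (0.62 ± 0.17, adjusted p = 0.013). Those called lower were MIR137HG (-2.80 ± 0.22, adjusted p = 1.5e-07), MIR34AHG (-1.17 ± 0.30, adjusted p = 0.0069), MIR100HG (-0.61 ± 0.09, adjusted p = 8.1e-05) and MIR181A1HG (-0.57 ± 0.16, adjusted p = 0.011). MIR100HG was at 139.8, 80.6 and 123.5 CPM in MDA-MB-231 WT and 84.2, 86.3 and 88.4 in the labelled SLUG KO libraries, where replicate 2 was the one MDA-MB-231 WT library below them. MIR3142HG was at 3.12, 1.29 and 3.71 and 7.22, 6.63 and 7.06 CPM, MIR1915HG at 8.12, 13.8 and 8.64 and 15.2, 14.8 and 17.5, and MIR34AHG at 2.92, 4.26 and 2.00 and 1.04, 1.24 and 1.01, and the groups of these 3 did not overlap with or without replicate 2, the closest being MIR1915HG at 13.8 and 14.8 CPM. MIR222HG, MIR17HG and MIR4458HG also had their lowest MDA-MB-231 WT value in replicate 2, the last at 16.5, 3.74 and 19.9 CPM. MIR205HG, MIR31HG and MIR200CHG had no count in the labelled SLUG KO libraries.

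The fifth comparison asked which hosts differed when SMAD2, SMAD3 and SMAD4 were targeted by siRNA in MDA-MB-231 cells. Of 28 members tested, 7 were called higher and 9 lower (57.1%, against 36.0% of 17696 genes, 16.3% higher and 19.7% lower), and 2 were DEGs (7.14%, against 1.90%), both lower. Of all genes 0.978% were DEGs with higher and 0.927% with lower RNA. For the lncRNAs tested these shares were 2.05% and 0.791%. MIR924HG was at 4.16, 4.94 and 4.49 CPM in Csi and 2.03, 2.35 and 1.97 in siSMAD2/3/4 (log2 fold-change -1.10 ± 0.16, adjusted p = 1.4e-06). MIR181A1HG was at 0.443, 0.369 and 0.299 and 0.0823, 0.0880 and 0.157 CPM (log2 fold-change -1.74 ± 0.55, adjusted p = 0.013), a change among few counts. MIR137HG was at 8.86, 6.97 and 9.15 and 4.91, 4.75 and 4.88 CPM (log2 fold-change -0.78 ± 0.12, adjusted p = 4.1e-06), and MIR3142HG at 3.71, 2.72 and 2.89 and 2.11, 2.02 and 1.41 (log2 fold-change -0.73 ± 0.19, adjusted p = 0.0033). MIR1915HG was the clearest of those that rose, at 15.3, 15.5 and 16.1 and 21.8, 22.0 and 21.6 CPM (log2 fold-change 0.48 ± 0.07, adjusted p = 3.2e-06). For each of these 5 hosts the groups did not overlap.

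Hosts called with smaller changes were MIR4280HG (-0.69), MIR3681HG (-0.59), MIR600HG (-0.53), MIR210HG (-0.39) and MIR100HG (-0.17) among the lower, and MIR4453HG (0.39), MIR3936HG (0.39), MIR4458HG (0.38), MIR222HG (0.24), MIR22HG (0.20) and MIR4435-2HG (0.14) among the higher. With DESeq2, the calls of MIR3936HG, MIR4453HG, MIR4280HG and MIR4458HG were lost (adjusted p = 0.103, 0.0913, 0.0814 and 0.0504). MIR210HG was at 9.95, 8.71 and 7.38 CPM in Csi and 6.86, 6.75 and 6.17 in siSMAD2/3/4, MIR22HG at 31.6, 28.9 and 28.8 and 34.7, 33.5 and 34.2, and MIR222HG at 22.7, 22.7 and 24.5 and 29.2, 25.4 and 27.7. MIR17HG, at 3.03, 2.19 and 1.47 and 1.73, 2.20 and 1.72 CPM, was not called (adjusted p = 0.48), nor was MIR23AHG (adjusted p = 0.38) or MIR29B2CHG (adjusted p = 0.69). The sequencing run names place siSMAD2/3/4 replicates 1 and 2 on another flow cell than the other 4 libraries, so that with flow cell as a term the siRNA effect is estimated from siSMAD2/3/4 replicate 3 alone against Csi. In that fit 7 members were called, MIR924HG, MIR137HG, MIR3142HG and MIR1915HG among them, and MIR181A1HG was not (adjusted p = 0.291). The treatment label of these libraries names the siRNA and no TGFβ.

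**Figure D4:**
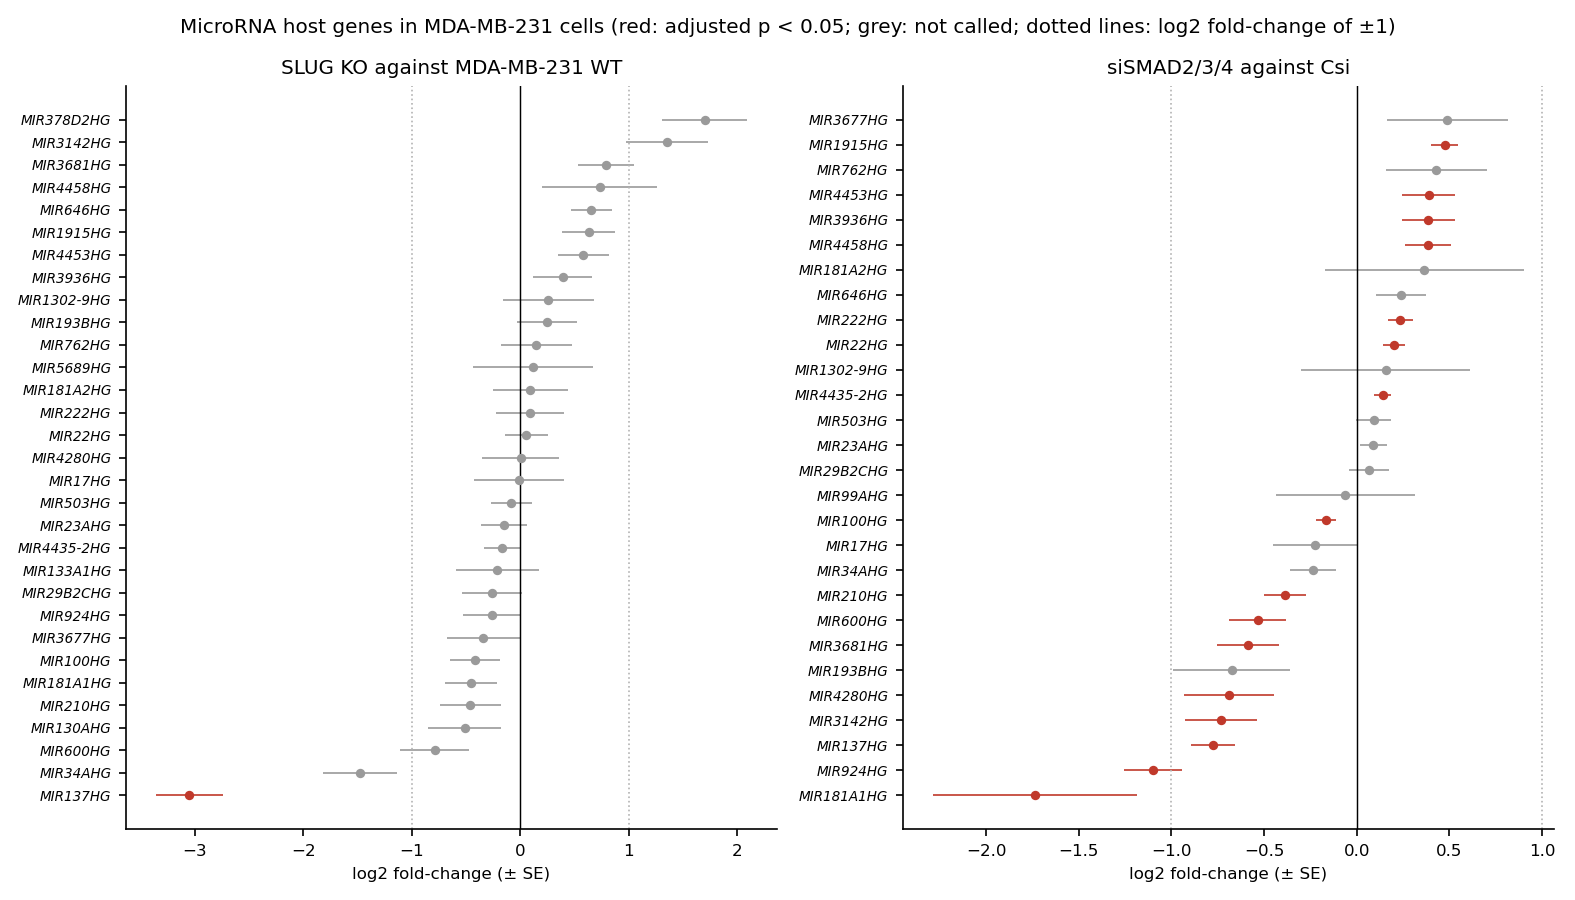
Log2 fold-change ± SE of every member tested in the libraries labelled SLUG KO against MDA-MB-231 WT (left) and in siSMAD2/3/4 against Csi (right), with red for called members and dotted lines at 1 and -1; the horizontal scales differ. MIR137HG lies at the low end in both panels, at -3.05 and -0.78.

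Across the comparisons, the shares of members called can be set beside those of lncRNA genes and of all genes tested. The plot of shares gives them for the genes that passed the filter on low counts. In the labelled SLUG KO comparison the share of members, 3.23%, is 1 gene, beside 1.98% of lncRNAs and 3.33% of all genes. The differences between these shares were not tested.

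**Figure D5:**
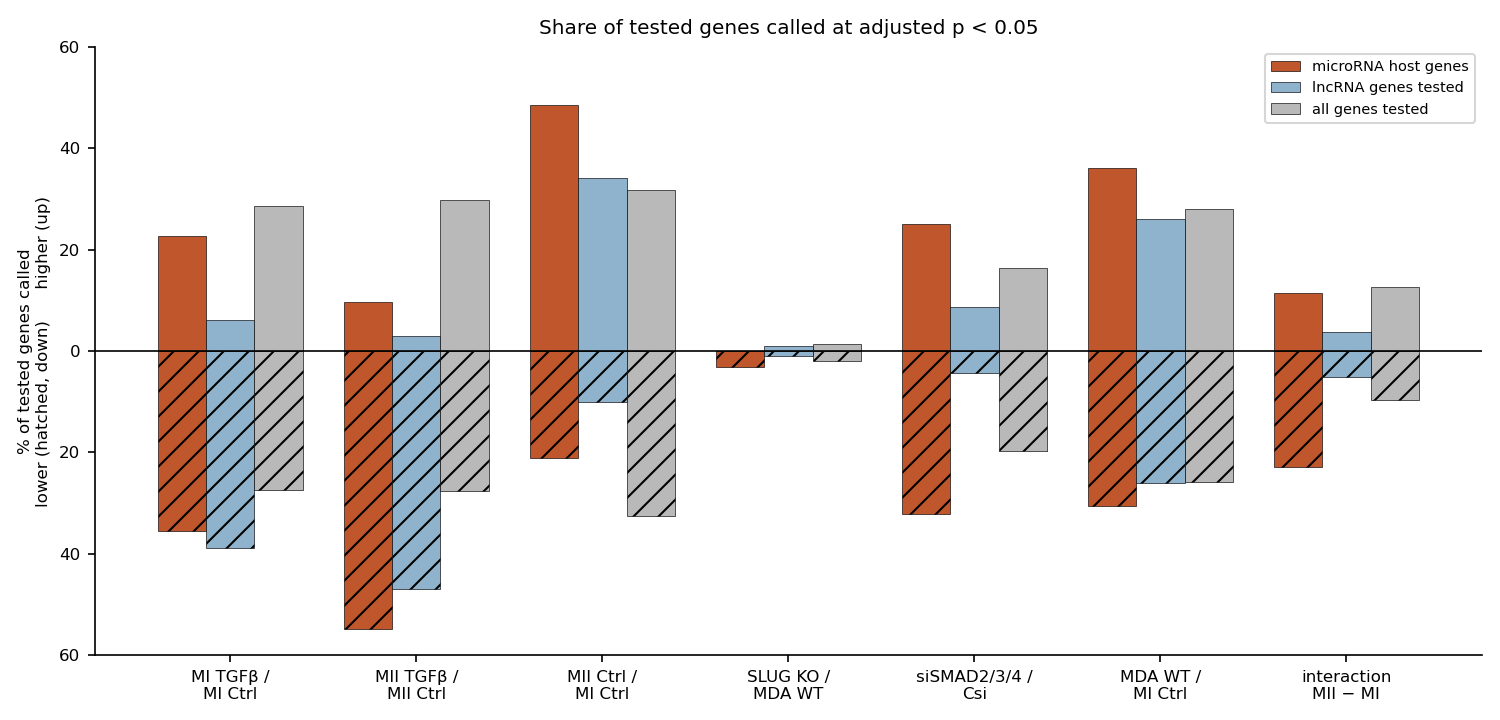
Percentage of tested genes called at adjusted p under 0.05 in each comparison, with higher above and lower (hatched) below 0, for microRNA host genes, lncRNA genes and all genes. In the 2 TGFβ comparisons the hatched bars of host genes and lncRNAs are of like height, 35.5% and 38.8% in MI and 54.8% and 47.0% in MII.

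The hairpins themselves are also listed in the count tables as short genes of their own. Of those matched to members, 60 had no count in any library and 15 reached 10 counts in at least 1 library. Fragments here come from longer precursor or host RNA, since mature microRNAs are too short for these libraries, and fragments that also touch a host exon were not counted. MIR205, across an exon boundary of MIR205HG, was at 8.96, 9.16 and 5.85 CPM in MI Ctrl, 8.42, 8.48 and 7.69 in MI TGFb, 2.96, 2.56 and 2.59 in MII Ctrl and 2.13, 1.11 and 1.67 in MII TGFb. It was lower in MII Ctrl than in MI Ctrl (log2 fold-change -1.58, adjusted p = 9.9e-13) and lower with TGFβ in MII (log2 fold-change -0.73, adjusted p = 0.012), and was not called with TGFβ in MI (log2 fold-change -0.05, adjusted p = 0.77), where its host was called higher. MIR141, in the intron of MIR200CHG, was lower with TGFβ in MII (log2 fold-change -1.06, adjusted p = 0.012) and was not called in MI (log2 fold-change -0.32, adjusted p = 0.44). In contrast to the host exons, it was higher in MII Ctrl than in MI Ctrl (log2 fold-change 0.73, adjusted p = 0.040), with 85 and 55 counts over the groups. MIR200C, in the same intron, was not called there (log2 fold-change 0.43, adjusted p = 0.38). MIR210, in the intron of MIR210HG, was not called with TGFβ in MI (log2 fold-change 0.01, adjusted p = 0.99), where its host was called higher.

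In MDA-MB-231 WT against MI Ctrl, the hairpin entries in the introns of MIR100HG were higher with their host: MIRLET7A2 was at 0, 0.0954 and 0 CPM in MI Ctrl and 4.62, 2.32 and 3.10 in MDA-MB-231 WT, and MIR125B1 at 0, 0.0477 and 0.0513 and 2.04, 0.947 and 1.67. MIR221 and MIR222, in the intron of MIR222HG, were higher too (log2 fold-change 3.00, adjusted p = 0.00029 and log2 fold-change 1.93, adjusted p = 0.0070). MIR205 and MIR141 had no count in any MDA-MB-231 library. In the Csi libraries MIRLET7A2 had no count although MIR100HG stood at 53.2, 50.4 and 52.8 CPM, but these libraries belong to the other batch.

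The protein-coding gene nearest to each DEG member was examined in the same fits. In MI-spheres with TGFβ, of 6 such neighbours tested, 1 was called in the direction of the host and 3 in the opposite one. In MII-spheres with TGFβ it was 3 and 0 of 4, in MII Ctrl against MI Ctrl 5 and 2 of 9, and in MDA-MB-231 WT against MI Ctrl 11 and 1 of 17. In these comparisons, in that order, 56.0%, 57.6%, 64.2% and 54.0% of all genes tested were called in either direction. Whether neighbours went with their hosts more often than other genes was not tested. The neighbours tested in the labelled SLUG KO and siRNA comparisons, 1 in each, were not called.

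Promoter sequences, from 250 bases before to 50 after the RefSeq start, were at hand for 61 members. CAGGTG, the E-box bound by SLUG and the ZEB factors, was found on either strand (CAGGTG or CACCTG) in 14 of them (23.0%), against 20.1% of 19076 genes with a promoter sequence. CAGAC, the core of a SMAD site (CAGAC or GTCTG), was in 26 (42.6%, against 45.0%), and TGACTCA, an AP-1 site (TGACTCA or TGAGTCA), in 5 (8.197%, against 4.27%). These are letter matches and not sites shown to be bound. MIR29B2CHG, MIR34AHG, MIR193BHG, MIR210HG, MIR503HG, MIR646HG and MIR4458HG hold a CAGGTG match and had counts in every MDA-MB-231 library. MIR200CHG and MIR31HG hold a match too and were at or near 0 in every MDA-MB-231 group. Whether a match bears on the level of its host was not tested. As an example, the match of MIR200CHG lay 78 bases before its start, shown here in capitals within chr12:6963158-6963181 (GRCh38.p14, plus strand).
MIR200CHG promoter: aggaggacaCACCTGtgcgcaggg

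The list of 31 genes of microRNA processing and action was read in the same fits. Of 29 tested, 8 were called higher and 10 lower with TGFβ in MI, and 7 higher and 11 lower in MII, with median log2 fold-changes of -0.05 and -0.03. Of all genes tested, 28.7% were called higher and 27.4% lower in MI, and 29.9% and 27.6% in MII. DICER1 fell in MI (-0.31), and DROSHA was called in neither line. ZC3H12A, an endonuclease known to cut microRNA precursors, was the 1 DEG of the list in each line, at -1.67 in MI and -1.26 in MII. RAN, the GTPase that works with the precursor exporter XPO5, was higher in both (0.75 and 0.60). In MII Ctrl against MI Ctrl 11 were called higher and 9 lower, in MDA-MB-231 WT against MI Ctrl 7 and 6, in the siRNA comparison 9 and 8, and in the labelled SLUG KO comparison 0 and 0. In the same order, 64.2%, 54.0%, 36.0% and 3.33% of all genes tested were called in either direction.

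Of 24 microRNA hosts outside the symbol rule, which are mostly coding genes with an intronic microRNA, 6 were called higher and 6 lower with TGFβ in MI, and of 22 tested in MII, 10 higher and 6 lower. Their medians were -0.01 and 0.09, against -0.23 and -0.55 for the members. Of all genes tested, 56.0% were called in MI and 57.6% in MII, in either direction. The lncRNA hosts of let-7 with symbols of another form, MIRLET7BHG and MIRLET7A1HG, were called lower in both lines, at -0.53 and -0.55 in MI and -0.23 and -0.32 in MII. Of the 6 genes of the miR-200 and miR-205 axis, 1 was called higher and 1 lower with TGFβ in MI. In MII 2 were called higher and 1 lower. ZEB1 was called in neither TGFβ comparison and was higher in MII Ctrl than in MI Ctrl (1.19). EPCAM was among those higher with TGFβ in both lines (1.07 and 0.63).

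The remaining levels of the hosts that were DEGs in some comparison follow, by library. In the spheres, MIR137HG was at 0.572, 0.716 and 1.13 CPM in MI Ctrl, 0.652, 1.02 and 0.460 in MI TGFb, 0.854, 1.10 and 0.605 in MII Ctrl, and 1.60, 1.18 and 0.602 in MII TGFb. MIR3142HG was at 0, 0.0477 and 0.0513 CPM in MI Ctrl, 0, 0.0883 and 0 in MI TGFb, 0.197, 0.232 and 0.220 in MII Ctrl, and 0.332, 0.0655 and 0.201 in MII TGFb. MIR130AHG was at 0, 0.0477 and 0 CPM in MI Ctrl, 0, 0.0442 and 0 in MI TGFb, 0, 0.0996 and 0.165 in MII Ctrl, and 0, 0 and 0.134 in MII TGFb. These 3 hosts were low in every sphere group, as the values show, while MDA-MB-231 WT had more of each.

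MIR1915HG in MII was at 0.328, 0.398 and 0.605 CPM in MII Ctrl and 0.399, 0.393 and 1.34 in MII TGFb. MIR223HG was at 0, 0 and 0.0418 CPM in MI TGFb and 1.80, 1.44 and 1.14 in MII TGFb. MIR3681HG was at 0.652, 1.63 and 0.962 CPM in MI TGFb, 0.788, 0.365 and 0.330 in MII Ctrl, and 0.864, 0.982 and 0.268 in MII TGFb. MIR503HG was at 0.760, 0.839 and 0.209 CPM in MI TGFb, 0.263, 0.299 and 0.330 in MII Ctrl, and 0.266, 0.655 and 0.535 in MII TGFb. MIR223HG was near 0 in both MI groups and well above 0 in both MII groups. MIR4435-2HG was at 25.3, 30.1 and 27.6 CPM in MI TGFb, 26.3, 25.7 and 25.9 in MII Ctrl, and 23.0, 26.5 and 24.4 in MII TGFb. MIR193BHG was at 5.54, 4.81 and 4.64 CPM in MI TGFb, 2.63, 3.02 and 3.52 in MII Ctrl, and 3.46, 4.06 and 3.01 in MII TGFb. MIR600HG was at 8.69, 8.66 and 8.74 CPM in MI TGFb and 14.96, 16.7 and 16.2 in MII TGFb. MIR600HG was higher in every MII TGFb library than in every MI TGFb library.

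MIR181A1HG was at 4.996, 6.84 and 4.89 CPM in MI TGFb and 11.0, 8.45 and 8.63 in MII TGFb. MIR181A2HG was at 1.41, 1.48 and 2.00 CPM in MI Ctrl and 0.923, 1.37 and 0.794 in MI TGFb. MIR9-1HG was at 0.648, 1.00 and 0.616 CPM in MI Ctrl and 0.109, 0.883 and 0.209 in MI TGFb. All 3 were higher in the untreated MII libraries given above than in the untreated MI libraries. MIR133A1HG was at 4.53, 4.45 and 4.02 CPM in MII Ctrl and 3.26, 3.01 and 2.74 in MII TGFb. MIR3677HG was at 1.31, 1.56 and 1.65 CPM in MII Ctrl and 1.26, 0.524 and 1.00 in MII TGFb. MIR99AHG was at 1.64, 1.73 and 1.82 CPM in MII Ctrl and 2.66, 1.83 and 2.88 in MII TGFb. The MIR99AHG libraries of the 2 MII groups did not overlap but lay close. MIR378D2HG was at 0.839, 1.00 and 0.308 CPM in MI Ctrl and 0, 0.265 and 0.167 in MI TGFb. MIR646HG was at 0.923, 2.78 and 1.42 CPM in MI TGFb and 0, 0.393 and 0.335 in MII TGFb. MIR3150BHG was at 0.923, 0.618 and 0.962 CPM in MI TGFb, 0.591, 0.664 and 0.936 in MII Ctrl, and 0.598, 0.262 and 0.535 in MII TGFb. These last hosts were all low in the treated spheres. MIR4280HG was at 5.52, 3.93 and 4.28 CPM in MII TGFb.

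In MDA-MB-231 cells, MIR17HG was at 16.4, 5.08 and 13.9 CPM in MDA-MB-231 WT and 11.1, 13.7 and 10.6 in the libraries labelled SLUG KO. MIR23AHG was at 55.7, 80.0 and 54.6 CPM in MDA-MB-231 WT, 53.9, 64.0 and 54.1 in the libraries labelled SLUG KO, 30.2, 23.9 and 26.03 in Csi, and 27.2, 30.4 and 27.5 in siSMAD2/3/4. MIR29B2CHG was at 22.4, 30.6 and 14.95 CPM in MDA-MB-231 WT, 17.0, 21.1 and 18.9 in the libraries labelled SLUG KO, 13.8, 9.61 and 9.75 in Csi, and 12.1, 10.4 and 11.9 in siSMAD2/3/4. These hosts, which fell with TGFβ in both sphere lines, were well above 0 in every MDA-MB-231 group. MIR222HG was at 66.3, 77.5 and 80.9 CPM in the libraries labelled SLUG KO. MIR22HG was at 34.4, 35.4 and 38.3 CPM in the libraries labelled SLUG KO. MIR210HG was at 7.46, 11.6 and 6.11 CPM in MDA-MB-231 WT and 6.90, 6.08 and 5.36 in the libraries labelled SLUG KO. None of the 3 was called between the labelled SLUG KO libraries and MDA-MB-231 WT. MIR100HG was at 46.3, 45.4 and 47.8 CPM in siSMAD2/3/4. MIR924HG was at 10.6, 9.21 and 9.08 CPM in the libraries labelled SLUG KO. MIR4280HG was at 1.60, 1.61 and 2.84 CPM in the libraries labelled SLUG KO, 1.40, 1.82 and 1.85 in Csi, and 1.15, 0.939 and 1.06 in siSMAD2/3/4. MIR4435-2HG was at 112.1, 120.2 and 123.6 CPM in the libraries labelled SLUG KO, 84.8, 92.4 and 89.9 in Csi, and 97.3, 98.1 and 99.4 in siSMAD2/3/4.

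MIR3681HG was at 6.86, 5.80 and 7.52 CPM in the libraries labelled SLUG KO, 3.44, 3.33 and 3.87 in Csi, and 2.14, 2.23 and 2.72 in siSMAD2/3/4. MIR646HG was at 12.7, 11.5 and 9.86 CPM in the libraries labelled SLUG KO, 3.82, 4.57 and 3.81 in Csi, and 4.99, 4.64 and 4.79 in siSMAD2/3/4. MIR503HG was at 16.3, 13.1 and 16.1 CPM in the libraries labelled SLUG KO, 11.9, 9.74 and 9.47 in Csi, and 11.0, 11.1 and 10.9 in siSMAD2/3/4. All 3 were detected in every one of these libraries. MIR34AHG was at 5.11, 5.65 and 5.91 CPM in Csi and 4.61, 4.55 and 5.04 in siSMAD2/3/4. MIR193BHG was at 1.56, 1.24 and 1.38 CPM in the libraries labelled SLUG KO, 0.852, 1.19 and 1.09 in Csi, and 0.521, 0.704 and 0.752 in siSMAD2/3/4. MIR130AHG was at 0.847, 0.861 and 1.14 CPM in MDA-MB-231 WT, 0.842, 0.645 and 0.504 in the libraries labelled SLUG KO, 0, 0.238 and 0.0545 in Csi, and 0.192, 0.235 and 0.501 in siSMAD2/3/4. The siRNA libraries belong to another batch, so no order between the batches is read here. MIR600HG was at 5.04, 8.35 and 4.16 CPM in MDA-MB-231 WT, 2.73, 3.87 and 3.58 in the libraries labelled SLUG KO, 4.26, 4.01 and 3.81 in Csi, and 3.15, 2.58 and 2.57 in siSMAD2/3/4. MIR99AHG was at 0, 0.0461 and 0 CPM in the libraries labelled SLUG KO, 0.579, 0.792 and 0.817 in Csi, and 0.384, 1.203 and 0.532 in siSMAD2/3/4. MIR181A1HG was at 17.4, 11.1 and 12.4 CPM in MDA-MB-231 WT and 8.90, 9.58 and 11.6 in the libraries labelled SLUG KO. MIR181A1HG was called lower in siSMAD2/3/4, as given above.

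In MDA-MB-231 cells MIR181A2HG was at 1.19, 1.21 and 0.774 CPM in MDA-MB-231 WT, 0.842, 1.11 and 1.47 in the libraries labelled SLUG KO, 0.511, 0.0792 and 0.218 in Csi, and 0.439, 0.205 and 0.344 in siSMAD2/3/4. MIR133A1HG was at 3.69, 1.38 and 2.57 CPM in MDA-MB-231 WT, 2.21, 2.49 and 1.97 in the libraries labelled SLUG KO, 0, 0.132 and 0.408 in Csi, and 0.192, 0.147 and 0.251 in siSMAD2/3/4. MIR3677HG was at 1.39, 1.46 and 0.855 CPM in MDA-MB-231 WT, 0.962, 1.15 and 0.825 in the libraries labelled SLUG KO, 0.920, 0.422 and 0.980 in Csi, and 1.29, 1.09 and 0.845 in siSMAD2/3/4. Of these, MIR3677HG shares 20.9% of its exonic bases with other genes. MIR378D2HG was at 0.462, 0.301 and 0.693 CPM in MDA-MB-231 WT, 1.44, 2.03 and 1.33 in the libraries labelled SLUG KO, 0.0341, 0.0792 and 0.109 in Csi, and 0.0823, 0.176 and 0.188 in siSMAD2/3/4. MIR9-1HG was at 0.361, 0.322 and 0.138 CPM in the libraries labelled SLUG KO, 0.0682, 0.0264 and 0.0272 in Csi, and 0.192, 0 and 0.188 in siSMAD2/3/4. MIR3150BHG was at 0.0401, 0.138 and 0.229 CPM in the libraries labelled SLUG KO, 0, 0.106 and 0 in Csi, and 0.0274, 0 and 0.0313 in siSMAD2/3/4. MIR3150BHG had no count in some of these libraries. MIR223HG was at 0, 0.0861 and 0 CPM in MDA-MB-231 WT, 0, 0 and 0 in the libraries labelled SLUG KO, 0, 0 and 0 in Csi, and 0, 0 and 0 in siSMAD2/3/4. MIR31HG was at 0.102, 0.158 and 0.218 CPM in Csi and 0.384, 0.293 and 0.0626 in siSMAD2/3/4.

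Of the 81 members, 38 passed the filter in at least 1 comparison, 35 were called in at least 1 and 32 were DEGs in at least 1. The matching shares of all genes over the comparisons were not computed. In single comparisons, 3.33% (labelled SLUG KO) to 64.2% (MII Ctrl against MI Ctrl) of all genes tested were called. DEGs were 1.90% (siSMAD2/3/4) to 44.5% (MDA-MB-231 WT against MI Ctrl) of them. MIR1302-9HG, MIR5689HG and MIR762HG were tested and never called. The other 43 passed the filter in no comparison, never exceeded 20 counts in a library, and had group means of at most 0.487 CPM, the highest being MIR34BHG in the libraries labelled SLUG KO. They were therefore not tested. They include hosts of microRNAs known from other tissues, such as MIR122HG (liver), MIR142HG (blood) and MIR124-1HG (brain). Of all members, 52 share exonic bases with another gene and fragments in shared bases were not counted. Counting ignored strand, so unspliced RNA from the intron of an overlapping gene would be counted to a host exon lying there. MIR22HG, MIR133A1HG, MIR181A2HG, MIR600HG and MIR3936HG are among the hosts that overlap a protein-coding gene. The part of such RNA in their values was not tested.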

How the data were processed

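Per the labels, RNA was prepared with a stranded total RNA kit with ribosomal RNA removal, and the deposited values are raw fragment counts per gene. According to the processing notes of the authors, Trimmomatic, STAR and featureCounts (Subread 2.0.0) were used with GRCh38.p13, and exons of GENCODE gene models were counted. Per the file headers, paired fragments were counted without regard to strand, and fragments that aligned to several places or touched several genes were left out. Symbols came from GENCODE for 60507 of 60708 genes. Other assays of the series were not analysed here.

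Counts were tested with the quasi-likelihood test of edgeR 4.0.16 in R 4.3.3 (limma 3.58.1), with TMM scaling and the default filterByExpr filter, on the libraries of each comparison. P-values were adjusted over all genes tested (Benjamini-Hochberg, 0.05). Levels are CPM, counts per library total scaled by TMM within each batch, SE is the log2 fold-change divided by the square root of F, and ± beside CPM is the SD. Steps were tested on simulated data. Alternatives were DESeq2 1.42.0, its size factors, other count filters, a replicate block, a flow cell term and leaving out each library. Intervals and floors (3 counts) cover counting error only. The members and lists were chosen with earlier results of these data known. Members that were DEGs in at least 1 comparison and 8 further hosts were named with all values, and called members with their log2 fold-change. Nothing in the labels says that replicates came from separate cultures, so p-values measure only the spread between these libraries. Same-numbered libraries did not deviate together (r from -0.25 to 0.11).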

Additional observations from a re-analysis of the deposited data

Results flagged for a closer look

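The response to TGFβ differed between the sphere lines, by the interaction test of edgeR, for 12 members. The values are log2 fold-changes in MII minus MI. The response was more positive in MII for MIR924HG (1.85), MIR100HG (0.85), MIR29B2CHG (0.57) and MIR22HG (0.23). It was more negative in MII for MIR4280HG (-1.73), MIR205HG (-0.80), MIR31HG (-0.79), MIR210HG (-0.73), MIR222HG (-0.49), MIR4458HG (-0.46), MIR34AHG (-0.38) and MIR4435-2HG (-0.35). MIR4280HG was lost from the calls in 9 of 16 alternatives, MIR22HG in 12 of 17 and MIR34AHG in 2 of 17 (largest adjusted p = 0.148, 0.175 and 0.062).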

How the results depend on the processing

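For the labelled SLUG KO comparison the number of members called was 1, with 4 under DESeq2, 5 without a filter on low counts, and 1 to 9 when a library was left out, 9 of them without MDA-MB-231 WT replicate 2. For siSMAD2/3/4 against Csi it was 16, with 7 with flow cell as a term and 11 to 15 when a library was left out. For MDA-MB-231 WT against MI Ctrl it was 24, with 14 where every library needed 10 counts and 19 to 29 when a library was left out. Leaving out a library gave 17 to 21 for TGFβ in MI, 18 to 22 in MII, 23 to 24 for MII Ctrl against MI Ctrl and 9 to 12 for the interaction. The cause of these changes was not tested, except that the 10-count filter admits fewer genes. With the replicate number as a block the members called were 20, 20, 23, 1, 16, 22 and 13 for TGFβ in MI and in MII, MII Ctrl against MI Ctrl, the labelled SLUG KO, siSMAD2/3/4, MDA-MB-231 WT against MI Ctrl and the interaction, and the libraries share only a number.

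Of 1360 single-gene values over 114 results, 1258 stayed on their side of the threshold, the others, in 27 results, lost it, and 0 changed sign. Calls lost without 1 library were, with TGFβ in MI, those of MIR34AHG (without MI TGFb replicate 1 or MI Ctrl replicate 3), MIR99AHG (without MI TGFb replicate 3) and MIR31HG (without MI Ctrl replicate 1), with adjusted p from 0.054 to 0.058, and of MIR181A2HG (without MI TGFb replicate 1 or 3 or any MI Ctrl library, up to 0.211). In MII the calls of MIR4453HG (without MII TGFb replicate 3, 0.109) and MIR31HG (without MII TGFb replicate 3 or MII Ctrl replicate 2, 0.051 and 0.090) were lost. In MDA-MB-231 WT against MI Ctrl the calls of MIR9-1HG, MIR222HG, MIR181A1HG, MIR3936HG and MIR3677HG were each lost without some MI Ctrl library, with adjusted p from 0.053 to 0.105. In siSMAD2/3/4 against Csi, the calls of MIR924HG, MIR137HG, MIR3142HG, MIR600HG and MIR1915HG held under all alternatives run, and MIR181A1HG was lost without siSMAD2/3/4 replicate 1 or 2 (0.072 and 0.064). Those of MIR22HG, MIR100HG, MIR210HG, MIR222HG, MIR3936HG, MIR4280HG, MIR4435-2HG, MIR4453HG and MIR4458HG were each lost without some library (adjusted p from 0.052 to 0.196).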
